A study of Mus musculus with 4 samples.

Results

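A set of 50 genes of the Wnt and beta-catenin pathway was followed in lymphatic endothelial cells sorted from the meninges, the membranes around the brain, of aged mice. They are the 50 of 9114 rows of the deposited table whose names match a fixed pattern of pathway gene symbols (Wnt, Fzd, Lrp5 and Lrp6, Axin, Apc, Dvl, Gsk3, Tcf7, Sfrp, Dkk, Rspo, Lgr, Tle, casein kinase, Vangl, Celsr, Prickle, tankyrase and related names). The pattern uses names only and no measured value. Other genes of the pattern, among them Axin2, Lef1, Wls, Dvl2 and Dvl3, are not analysed here.

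All mice were male C57BL/6J of 20 to 24 months and had received 5 µL of an AAV1 vector, a gene-delivery virus, into the cisterna magna 4 weeks before the cells were taken. The treated group received AAV1-CMV-mVEGF-C, which carries mouse VEGF-C, the main growth factor of lymphatic vessels. The control group received AAV1-CMV-eGFP, which carries a fluorescent protein. The CMV promoter is active in many cell types, so the labels do not restrict which cells made the VEGF-C. Cells were sorted as live, CD45-negative, CD31-positive and podoplanin-positive. Each of the 2 libraries per group came from the meninges of 10 mice, so a library is a pool and the spread between individual mice was not measured.

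Wnt ligands are secreted lipid-modified proteins that bind Frizzled receptors together with the coreceptors LRP5 and LRP6. Without a ligand, a destruction complex of Axin, APC, GSK3 and casein kinase 1 marks beta-catenin for degradation. With a ligand, beta-catenin accumulates and binds TCF and LEF factors in the nucleus, displacing corepressors of the TLE family. A separate branch, planar cell polarity, runs through VANGL, CELSR and PRICKLE proteins, and both branches are known from the growth, valve formation and barrier properties of vessels.

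Over the 9114 rows of the deposited table, the 4 libraries held 25610683 to 28632461 recovered reads. The 50 genes took 0.470% and 0.547% of these reads with eGFP against 0.553% and 0.496% with mVEGF-C. All 10 lymphatic endothelial markers were tested and none was at 0 in any library. Their summed normalised read count was 481694 and 545992 in eGFP and 620070 and 508641 in mVEGF-C. Markers of other cells were present as well. The 7 of 9 blood endothelial markers with a row summed to 22834 and 50350.5 in eGFP and to 29810 and 32364 in mVEGF-C. Of their log2 fold changes 4 were above 0 and 3 below, and the part of blood endothelial cells in the pathway values was not tested. The 3 of 7 neural and glial markers summed to 905 and 677 in eGFP and to 1521 and 350 in mVEGF-C. The 8 of 12 meningeal fibroblast markers with a row summed to 79005 and 39055 in eGFP and to 85691 and 54430 in mVEGF-C. The 4 of 7 mural markers summed to 18643 and 15367 against 12712 and 10108, and the 2 of 7 leukocyte markers to 894 and 697 against 405 and 548. These last 2 sums were lower in both mVEGF-C libraries, but their genes differed in direction. Of the mural genes, Pdgfrb was above 0 on the log2 scale of differences (0.94), Rgs5, Kcnj8 and Notch3 were below, and Notch3 alone had groups that did not overlap. Of the leukocyte genes, Cx3cr1 was above 0 (0.44), and Itgam was below (-2.25). The sort had excluded CD45-positive cells, and none of the markers tested was at 0 in any library. In bulk libraries fewer cells of a type and less RNA per cell cannot be told apart.

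The comparison asks whether VEGF-C delivery changed the pathway in these cells. By limma on log2(normalised read count + 1), the calling threshold was 0.05 for p-values adjusted after Benjamini and Hochberg over 9063 genes. All 50 pathway genes passed the filter on low values, and 1 of them was called, the TLE family gene Tle6, which was lower in mVEGF-C. Of all genes, 2.14% were called (0.828% higher and 1.31% lower), so 1 of 50 (2%) is near the background. edgeR on the recovered reads called the same 1 gene of the 50, against 1.6% of all genes (0.728% higher, 0.872% lower). DESeq2 called 5 of the 50 (3 higher, 2 lower), against 6.63% of all genes (3.12% higher, 3.51% lower). Over the 50 genes, 26 log2 fold changes (mVEGF-C minus eGFP) were above 0 and 24 below, against 49.5% and 50.5% of all genes. Their median was 0.01, against -0.02 over all genes. The median absolute log2 fold change was 0.78 for the pathway and 0.79 for all genes.

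**Figure D1:**
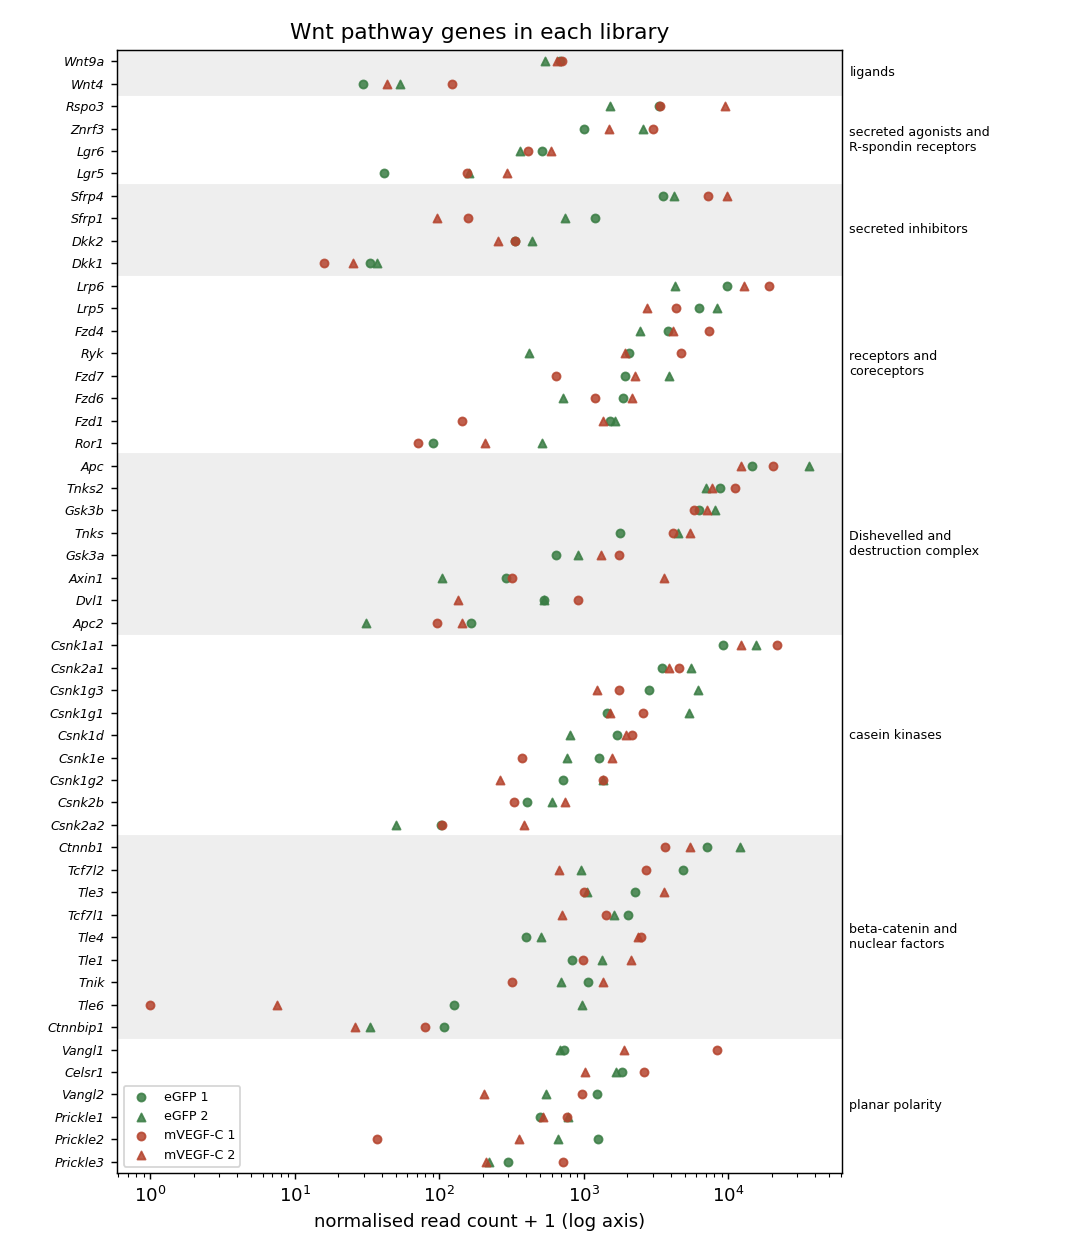
Normalised read count plus 1 (log axis) of each of the 50 pathway genes in the 4 libraries, grouped by role, with green for eGFP, red for mVEGF-C, circles for replicate 1 and triangles for replicate 2. Tle6 is the gene with both mVEGF-C libraries far to the left, at 0 and 6.5, while the groups overlap for 31 of the 50 genes.

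In limma, 7 genes had an unadjusted p under 0.05, 4 higher in mVEGF-C (Vangl1, Axin1, Tle4 and Lrp6) and 3 lower (Tle6, Prickle2 and Sfrp1). That is 14% of the 50, against 11.8% of all genes (5.09% higher, 6.7% lower), and the other 6 did not pass the adjustment. For 19 of the 50 genes (38%) both mVEGF-C libraries lay on one side of both eGFP libraries, 10 above and 9 below. Over all genes that share was 39.2% (19.4% above, 19.8% below).

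Both ligand genes with a row, Wnt9a and Wnt4, were uncalled. Wnt9a, which can signal through beta-catenin, had 678 and 536 normalised read counts with eGFP against 702 and 653 with mVEGF-C. The 4 values of Wnt9a lay close together, and its log2 fold change was 0.17 with a 95% interval of -2.07 to 2.40. Wnt4 was low, at 28.7 and 52.4 in eGFP and 121 and 42.7 in mVEGF-C libraries, and the groups overlapped.

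The 4 genes around the R-spondin branch had log2 fold changes from 0.20 to 1.40, and none was called. The signs of Lgr6 and Znrf3 depended on a single library. R-spondins amplify Wnt signals by binding LGR receptors and drawing the ubiquitin ligases ZNRF3 and RNF43, which remove Frizzled, from the cell surface. Rspo3, the secreted agonist of this branch and one known from blood vessel growth, had 3301 and 1517 normalised read counts in eGFP and 3344 and 9395 in mVEGF-C libraries. The mVEGF-C values of Rspo3 lay above the eGFP values, but mVEGF-C 1 exceeded eGFP 1 by a margin far smaller than the gap within either pair. The difference was 1.32 on the log2 scale, SE 0.79 (limma, adjusted p = 0.557). Lgr5, a receptor gene known as a stem cell marker, had 40.3 and 159 in eGFP and 155 and 293 in mVEGF-C libraries, a log2 fold change of 1.40 with overlapping groups. Its relative Lgr6 stood at 0.20 on the same scale, and this turned below 0 without eGFP 2 and without mVEGF-C 2, at lowest to -0.06. Znrf3 had 993 and 2565 in eGFP and 3018 and 1499.5 in mVEGF-C libraries, and its difference of 0.41 turned to -0.27 without eGFP 1 and to -0.09 without mVEGF-C 1.

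Among the secreted inhibitors, Sfrp1 and Sfrp4 differed in opposite directions, and neither difference passed the adjustment. SFRP proteins resemble the ligand-binding part of Frizzled and can bind Wnt outside the cell. Sfrp1 had 1186 and 735 normalised read counts in eGFP and 157 and 94.8 in mVEGF-C libraries. Both mVEGF-C values of Sfrp1 were far below both eGFP values, and the libraries of each group were close to each other. The difference was -2.93 on the log2 scale, SE 1.21 (limma, adjusted p = 0.235), and it ranged from -3.29 to -2.56 with each library left out. DESeq2 on the recovered reads called it lower (adjusted p = 0.0108), whereas edgeR did not (adjusted p = 0.278). Sfrp4 had 3529.8 and 4203 in eGFP and 7253 and 9823 in mVEGF-C libraries. The groups of Sfrp4 did not overlap either, in the opposite direction, with a log2 fold change of 1.13 and an SE of 0.68 (limma, adjusted p = 0.557). Fibroblasts are a known source of secreted Wnt inhibitors. The summed fibroblast markers overlapped between the groups. Within each group their sum was higher in replicate 1, as Sfrp1 was, whereas Sfrp4 was higher in replicate 2. The part of fibroblasts in these values was not tested. Dkk1 and Dkk2, which encode inhibitors that bind LRP5 and LRP6, stood at -0.81 and -0.38. Dkk1 was among the lowest of the 50 genes, at 15.0 to 36.3 normalised read counts in the 4 libraries.

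The coreceptors Lrp6 and Lrp5 also differed in opposite directions without passing the adjustment. Per kilobase of exon the group mean of Lrp5 was the higher one in eGFP (746 against 511 for Lrp6), and that of Lrp6 in mVEGF-C (1158 against 364 for Lrp5). Lrp6 had 9733 and 4251 normalised read counts in eGFP and 18951 and 12722 in mVEGF-C libraries. The mVEGF-C values of Lrp6 were above both eGFP values, and the difference was 1.27 on the log2 scale, SE 0.54 (limma, adjusted p = 0.265), or 0.67 without eGFP 2. Lrp5 had 6242 and 8278 in eGFP and 4347 and 2737 in mVEGF-C libraries. For Lrp5 both mVEGF-C values were the lower ones, with a log2 fold change of -1.06 and an SE of 0.71 (limma, adjusted p = 0.632). Whether the 2 coreceptors differ from each other in their response was not tested.

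None of the 4 Frizzled receptor genes or the 2 other Wnt receptor genes was called. Fzd4, the receptor of the endothelial growth signal norrin as well as of Wnt ligands, had 3817 and 2438 normalised read counts in eGFP and 7288 and 4135 in mVEGF-C libraries. The groups of Fzd4 did not overlap, and the log2 fold change of 0.85 had a 95% interval of -0.64 to 2.33 (limma, adjusted p = 0.771). Fzd1 had 1525 and 1654 in eGFP and 142 and 1347 in mVEGF-C libraries, and its log2 fold change was -1.86 with mVEGF-C 1 far below the other 3 libraries. Without that library it was -0.24. Fzd7 had 1909 and 3852 against 639 and 2253, a log2 fold change of -1.18 with overlapping groups. Fzd6 had 1871 and 716 against 1186 and 2152, and its log2 fold change of 0.46 turned to -0.23 without eGFP 2. Ryk, an atypical Wnt receptor with an inactive kinase domain, had 2039.8 and 416 in eGFP and 4732 and 1934 in mVEGF-C libraries. Its 2 eGFP values differed more from each other than the group means on the log2 scale, where the difference was 1.71 (limma, adjusted p = 0.512). Ror1, another receptor kinase of the branch independent of beta-catenin, stood at -0.83.

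The destruction complex and its regulators showed no called gene among 8. Axin1, the scaffold of the complex, had 290.1 and 104 normalised read counts in eGFP and 319 and 3586 in mVEGF-C libraries. Only mVEGF-C 2 was high for Axin1, while mVEGF-C 1 was close to eGFP 1. The log2 fold change of 2.62 (SE 1.19, limma adjusted p = 0.317) was 0.88 without mVEGF-C 2 and 4.36 without mVEGF-C 1. The gap between the 2 mVEGF-C libraries, 3.48 on the log2 scale, was the widest of any of the 50 genes in that group. DESeq2 called Axin1 higher (adjusted p = 0.0349), and edgeR did not (adjusted p = 0.151).

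Apc, the tumour suppressor that holds the complex together with Axin, stood at 14439 and 36193 normalised read counts in eGFP and 20301 and 12206 in mVEGF-C libraries. Its groups overlapped, and its log2 fold change of -0.54 became 0.12 without eGFP 2. Gsk3b, the kinase that marks beta-catenin, was among the steadiest genes, with 6214 and 8063 in eGFP and 5760.2 and 7063 in mVEGF-C libraries, a log2 fold change of -0.15 (95% interval -1.40 to 1.10), or 0.038 without eGFP 2. Its close relative Gsk3a had 644 and 909.7 against 1735 and 1308, a difference of 0.98 with groups that did not overlap (limma, adjusted p = 0.838). The tankyrases mark Axin for degradation. Tnks had 1774 and 4443 against 4106 and 5425, and Tnks2 had 8744 and 6998 against 11168 and 7687. Their groups overlapped, with log2 fold changes of 0.75 and 0.24, the latter -0.025 without mVEGF-C 1. Dvl1, which relays the signal from Frizzled, had 531 and 526 in eGFP and 916 and 133 in mVEGF-C libraries, and its log2 fold change of -0.60 turned to 0.79 without mVEGF-C 2. Apc2 stood at 0.72 with overlapping groups.

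The 9 casein kinase genes gave 4 log2 fold changes above 0 and 5 below, and none was called. Casein kinase 1 acts at several steps of the pathway, including the first mark on beta-catenin. Csnk1a1, which encodes the kinase for that step, had 9120.1 and 15501 normalised read counts in eGFP and 21594 and 12190.3 in mVEGF-C libraries. Its values were interleaved, with a log2 fold change of 0.45 (95% interval -0.48 to 1.38). Csnk1g3, a membrane-bound isoform, had 2836 and 6119.7 against 1753 and 1236, a difference of -1.50 with groups that did not overlap (limma, adjusted p = 0.546). The related Csnk1g1 and Csnk1g2 stood at -0.51 and -0.72, with overlapping groups. Csnk1d was higher in both mVEGF-C libraries by 0.80 and Csnk1e stood at -0.35, neither called. Of the casein kinase 2 subunits, Csnk2a1 and Csnk2b differed by -0.05 and 0.01, the latter with a sign that depended on the scaling of the libraries. Csnk2a2 was low, at 102 and 49.2 in eGFP and 103 and 382 in mVEGF-C libraries, with a difference of 1.47 and a 95% interval of -1.05 to 3.99.

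Beta-catenin itself, encoded by Ctnnb1, had 7061 and 12028 normalised read counts in eGFP and 3668 and 5434 in mVEGF-C libraries. Both mVEGF-C values were below both eGFP values, and the log2 fold change of -1.05 had an SE of 0.65 (limma, adjusted p = 0.577). These are transcript levels. The pathway is known to control beta-catenin mainly through the stability of the protein, which was not measured. Tcf7l1 and Tcf7l2, the 2 genes for DNA-binding partners of beta-catenin with a row, stood at -0.85 and -0.68. Tcf7l1 had 2032 and 1611 in eGFP and 1431.5 and 704 in mVEGF-C libraries, both below the eGFP pair. Tcf7l2 had 4860.4 and 951 in eGFP and 2678 and 673 in mVEGF-C libraries. For Tcf7l2 the first library of each group was the higher one, and its difference turned to 0.50 without eGFP 1 and to 0.32 without mVEGF-C 2. Ctnnbip1, an inhibitor that blocks the binding of beta-catenin to TCF, stood at -0.39, and the kinase gene Tnik at -0.40, both with overlapping groups.

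**Figure D2:**
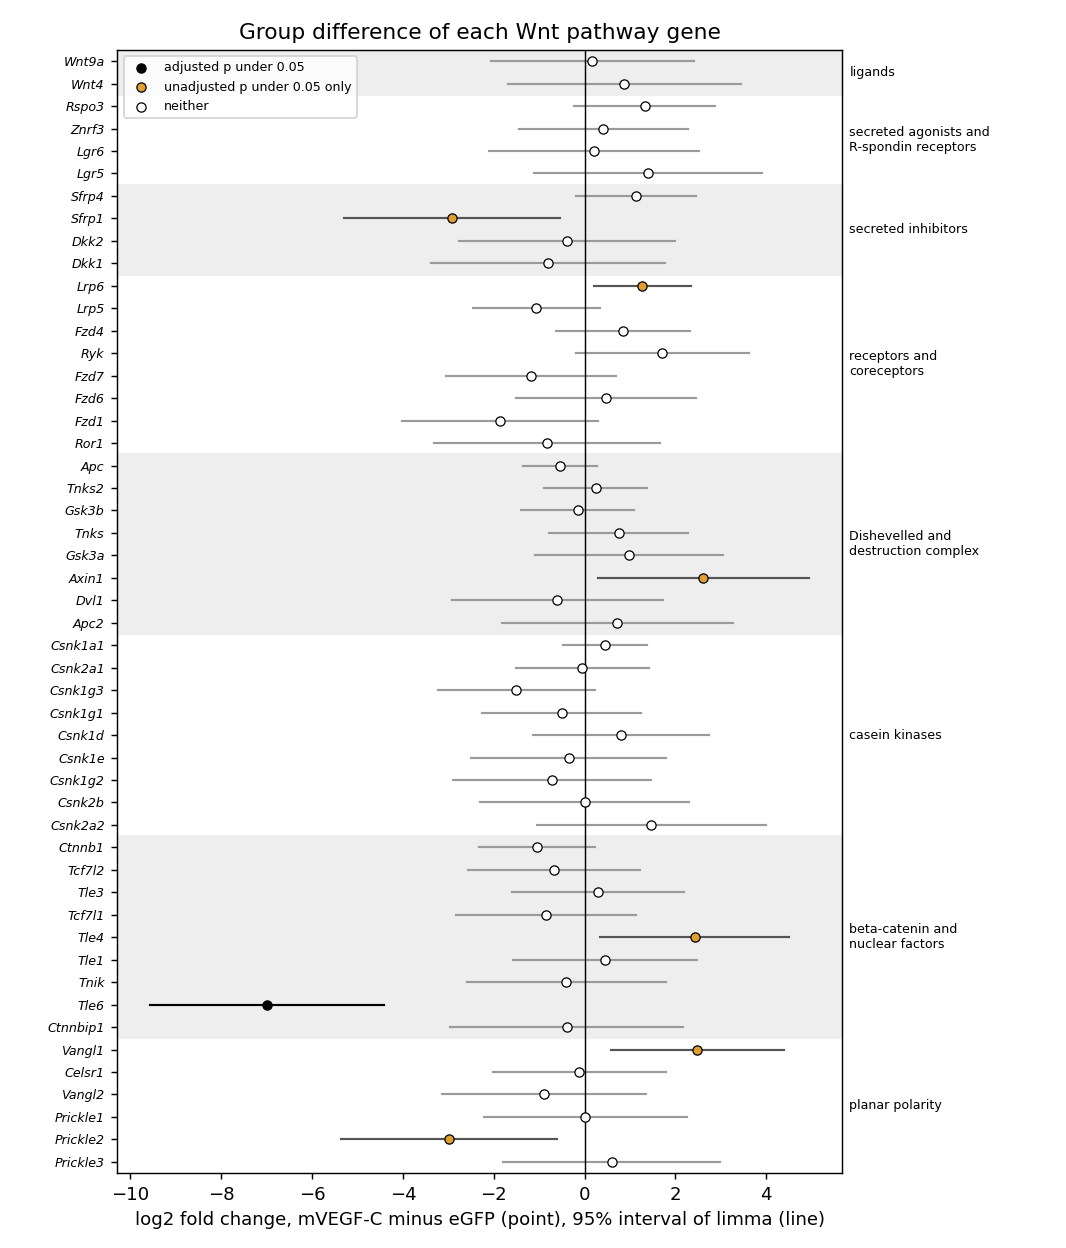
Log2 fold change (mVEGF-C minus eGFP) of each pathway gene by role, with the 95% interval of limma as a line. The interval of Tle6 runs from -9.57 to -4.41, those of 6 further genes also leave out 0, and 43 intervals include it.

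The TLE family genes held the called gene and a gene with the opposite difference. TLE corepressors silence TCF target genes when beta-catenin is absent, and whether TLE6 does so in these cells was not measured. Tle6 (chromosome 10, 81590904 to 81601073, minus strand, GRCm38) fell from 124 and 963 normalised read counts in eGFP to 0 and 6.50 in mVEGF-C libraries. These are 139 and 901 reads against 0 and 7 reads, and the group means were 544 ± 593 and 3.25 ± 4.60 (SD, n = 2). The groups were far apart, and the 2 libraries of each group also differed by 2.94 and 2.91 on the log2 scale. The difference was -6.99 on the log2 scale, SE 1.31 (limma, adjusted p = 8.15e-05). For every gene limma took the variance from the trend over genes of similar level alone. The wide gaps of Tle6 therefore entered neither this SE nor this p-value. Tle6 was also called by edgeR (adjusted p = 0.00321) and DESeq2 (adjusted p = 1.48e-06). Because 1 library was at 0, the size of the fold depends on the pseudocount, and it was -5.55 with a pseudocount of 5. The call was lost without eGFP 2 (-5.52, limma adjusted p = 0.592) and without the variance trend (limma adjusted p = 0.0514). Tle6 is the most divergent member of the family and is best known as part of a maternal protein complex in the egg. Of the mural and leukocyte markers tested, Notch3 and Itgam were also lower in both mVEGF-C libraries. Notch3 had 799 and 2179 in eGFP against 489 and 78.97 in mVEGF-C libraries, and Itgam had 698 and 310.0 against 76.9 and 123. The mural markers Rgs5 and Kcnj8 stood at -0.56 and -1.22, and Pdgfrb and Cx3cr1 above 0, all with overlapping groups. The part of mural cells and leukocytes in the difference of Tle6 was not tested.

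Tle4 (chromosome 19, 14448150 to 14598051, minus strand) had 399 and 506 normalised read counts in eGFP and 2467 and 2364 in mVEGF-C libraries. It was the gene of the 7 with the tightest replicates, with gaps of 0.34 and 0.06 on the log2 scale. The difference was 2.42 on the log2 scale, SE 1.06 (limma, adjusted p = 0.287), and it stayed between 2.25 and 2.59 with each library left out. DESeq2 called it higher (adjusted p = 0.0344), and edgeR did not (adjusted p = 0.340). The moderated variance of limma came from the trend alone, so the close agreement of these replicates did not enter the p-value. Tle1 and Tle3 stood at 0.45 and 0.29 with overlapping groups. The gap within a pair for Tle3 reached 1.84.

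Sequence upstream of the farthest RefSeq start of Tle4 and of Tle6 is shown because these TLE family genes differed in opposite directions. For Tle6 it is the 77 bases farthest from that start, and the 173 bases next to the start, which meet an annotated exon, are not shown. A stretch of Prickle2 is shown because, of the 3 of the 7 genes with a promoter entry, it is the 1 with matches to the core letters bound by TCF and LEF factors, which are set in capitals. All are from RefSeq on GRCm38.p6, minus strand, written 5′ to 3′, and limited to bases outside annotated exons.
Tle6, chr10:81601074-81601150: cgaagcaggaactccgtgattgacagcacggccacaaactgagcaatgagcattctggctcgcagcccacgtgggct
Tle4, chr19:14598184-14598433: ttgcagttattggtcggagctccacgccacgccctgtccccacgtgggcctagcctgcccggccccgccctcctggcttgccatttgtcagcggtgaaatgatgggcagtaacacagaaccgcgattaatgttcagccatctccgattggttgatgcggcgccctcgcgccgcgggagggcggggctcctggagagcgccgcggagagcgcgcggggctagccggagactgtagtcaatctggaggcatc
Prickle2, chr6:92567367-92567616: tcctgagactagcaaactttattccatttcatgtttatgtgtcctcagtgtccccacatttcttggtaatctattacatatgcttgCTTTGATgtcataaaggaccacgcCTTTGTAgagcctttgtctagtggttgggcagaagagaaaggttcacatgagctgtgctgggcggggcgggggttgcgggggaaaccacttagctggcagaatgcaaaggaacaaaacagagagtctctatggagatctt
The search used CTTTGAA or else CTTTGAT or else CTTTGTA or else CTTTGTT, on both strands of the 250 bases before each start. These motifs share their first 5 letters and were counted separately. Of 51 such windows from the 33 pathway genes with an entry, 6 (11.8%) held a match, against 10.6% of the 7898 windows of all genes tested and 14.8% of 32851 windows in all. A match is a run of letters and no evidence of binding. The Prickle2 stretch lies before 1 of its 4 RefSeq starts, and which start was used in these cells was not measured.

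The 6 planar polarity genes gave 3 log2 fold changes above 0, 3 below and no call. Vangl1 (chromosome 3, 102153583 to 102204693), a membrane protein at the core of this branch, had 733 and 686 normalised read counts in eGFP and 8319.8 and 1908 in mVEGF-C libraries. Both mVEGF-C values were above the eGFP pair, and mVEGF-C 1 was far above mVEGF-C 2. The difference was 2.49 on the log2 scale, SE 0.97 (limma, adjusted p = 0.186), and 1.43 without mVEGF-C 1. DESeq2 called it higher (adjusted p = 0.0292), and edgeR did not (adjusted p = 0.0951). Its relative Vangl2 stood at -0.89, and that sign turned to 0.24 without mVEGF-C 2.

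Prickle2 (chromosome 6, 92370908 to 92706155), whose protein pairs with VANGL at the cell membrane, had 1259 and 657 normalised read counts in eGFP and 36.3 and 353 in mVEGF-C libraries. Both mVEGF-C values of Prickle2 were below the eGFP pair, and mVEGF-C 1 was the lowest. The difference was -2.99 on the log2 scale, SE 1.22 (limma, adjusted p = 0.222), -1.36 without mVEGF-C 1 and -4.61 without mVEGF-C 2, where it was called (limma, adjusted p = 0.0302). The groups of the other genes of the branch overlapped, with Celsr1 at -0.11, Prickle3 at 0.60 and Prickle1 at 0.02, whose sign depended on the scaling of the libraries. Vangl1, Axin1 and Prickle2 each overlap an annotated gene on the opposite strand. Reads of overlapping genes cannot be told apart if counting ignored strand, and none of the labels states the strand setting.

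The spread within groups was wide. The larger of the 2 gaps within pairs exceeded the absolute group difference for 38 of the 50 genes (76%), against 73.9% of all genes tested. The median gap was 0.77 in the eGFP pair and 0.96 in the mVEGF-C pair for the pathway, against 0.94 and 1.07 for all genes, so both medians were smaller for the pathway. The median level was higher for the pathway, at 1374 normalised read counts against 828 for all genes. The part of level in the smaller gaps was not tested. A gap of over 2 on the log2 scale occurred for 10 pathway genes in the mVEGF-C pair and for 5 in the eGFP pair. The limits on gaps given below differ between the pairs, so these counts are not a like comparison of the groups. Shares over all genes were not counted for these gaps or for the sign changes that follow. Neither is therefore read as a trait of the pathway. With 1 library left out, 24 of the 50 genes changed the sign of their difference (Apc, Apc2, Celsr1, Csnk1e, Csnk1g1, Csnk1g2, Csnk2a1, Csnk2b, Ctnnbip1, Dvl1, Fzd6, Gsk3b, Lgr6, Prickle1, Prickle3, Ror1, Tcf7l2, Tle1, Tle3, Tnik, Tnks2, Vangl2, Wnt9a and Znrf3). Read from the values, the log2 gap of reads over all rows stopped at 2.83 in the eGFP pair and at 4.24 in the mVEGF-C pair. Rows with wider gaps are not analysed here, so the spread is understated, and how far this lowers the p-values could not be measured. Tle6 lay close to the limit of the eGFP pair. Its SD of log2 reads there was 1.9, the largest of the 50 genes, and the largest over all rows was 2.0. The gap of 2.94 given above for Tle6 in that pair is on normalised read counts and is not on the scale of this limit.

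**Figure D3:**
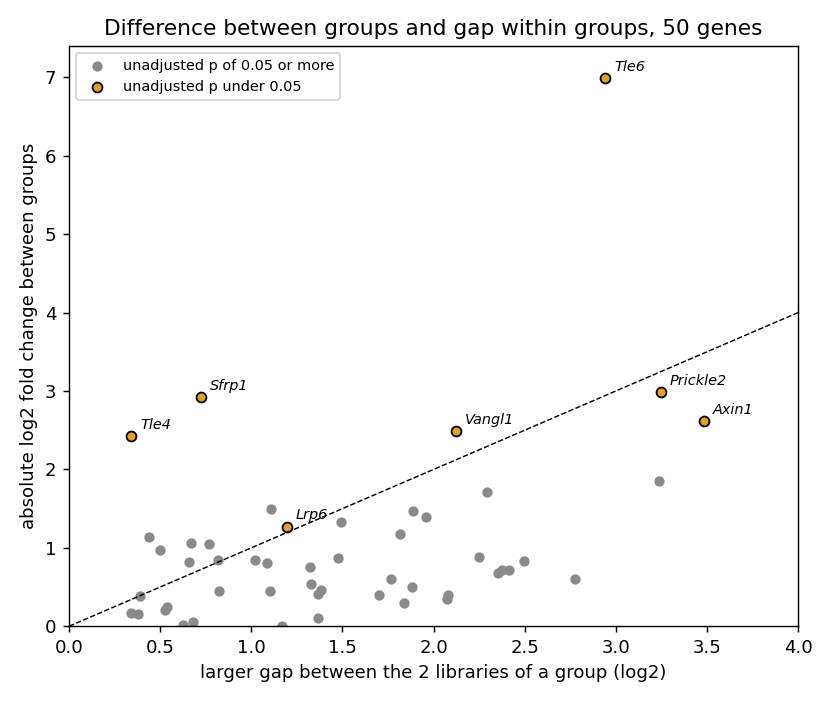
Absolute log2 fold change between groups against the larger log2 gap between the 2 libraries of a group, for the 50 pathway genes, with the 7 genes of unadjusted p under 0.05 named and the line of equality dashed. Tle6, Tle4, Sfrp1, Vangl1 and Lrp6 lie above the line, Prickle2 and Axin1 below it, and 38 of the 50 genes lie below it in all.

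Divided by the length of the annotated exons, the order of the levels differed between the groups. In eGFP the highest group means were 1838 normalised read counts per kilobase for Ctnnb1, 1571 for Apc, 1172 for Csnk1a1 and 1030 for Csnk1g3, with Sfrp4 at 925 and Rspo3 at 780. In mVEGF-C they were 2061 for Rspo3, 2043 for Sfrp4, 1608 for Csnk1a1 and 1158 for Lrp6. The mean level over the 4 libraries was 1484 normalised read counts per kilobase for Sfrp4, 1420.4 for Rspo3, 1390.3 for Csnk1a1, 1357 for Ctnnb1 and 1289.7 for Apc. These neighbours do not differ beyond their spread, since single libraries ran from 845 to 2351 per kilobase for Sfrp4 and from 491 to 3040.4 for Rspo3. Lrp6 and Tnks2 followed at 835 and 831 per kilobase. The lowest were Apc2 at 9.57, Dkk1 at 11.1 and Wnt4 at 14.6 per kilobase. Which transcript isoforms were present, and how the linear amplification spread reads along them, was not examined.

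**Figure D4:**
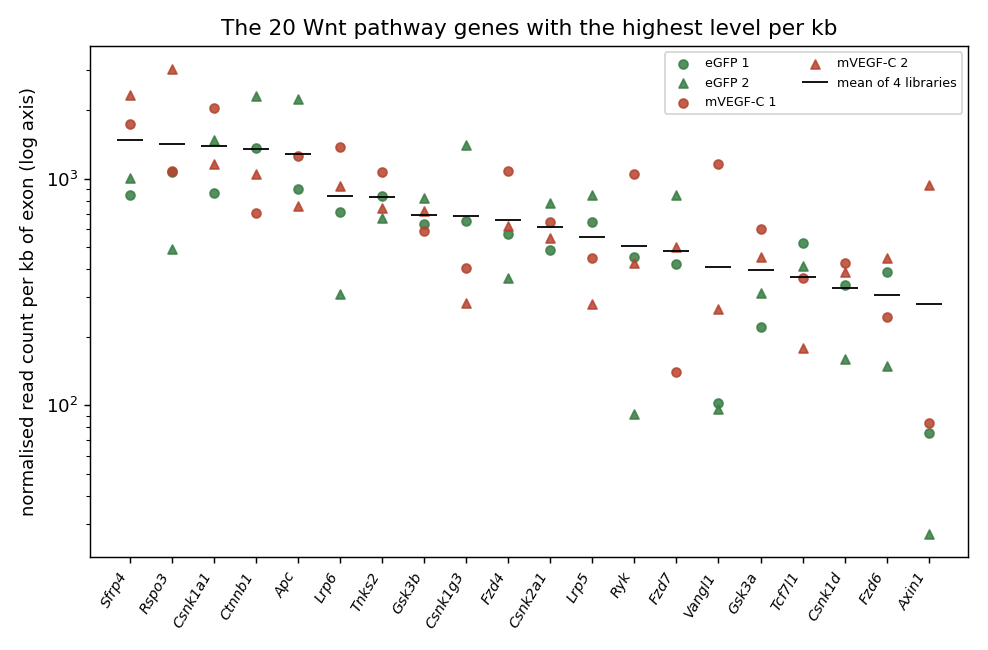
Normalised read count per kilobase of exon (log axis) for the 20 pathway genes with the highest mean, in the 4 libraries (green eGFP, red mVEGF-C, bar for the mean). The means fall from 1484 for Sfrp4 to 281 for Axin1, and the libraries of neighbouring genes overlap.

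Genes of the pathway outside the name pattern were read from lists. Of 38 further Wnt regulators tested, limma called 1, which was lower, and 5 had an unadjusted p under 0.05. Over all genes these shares were 2.14% and 11.8%, so both counts are near the background. Among the 38 regulators 15 log2 fold changes were above 0 and 23 below, and the median was -0.29, against -0.02 for all genes. The called gene was Dact1 (chromosome 12, 71309884 to 71320107), whose protein binds Dishevelled and modulates both branches. It fell from 576 and 3104 normalised read counts in eGFP to 10.7 and 86.4 in mVEGF-C libraries. The difference was -5.39 on the log2 scale, SE 1.25 (limma, adjusted p = 0.00258), and it was also called by edgeR (adjusted p = 0.0150) and DESeq2 (adjusted p = 1.28e-04). The libraries of Dact1 differed by 2.43 in the eGFP pair and 2.90 in the mVEGF-C pair on the log2 scale. As for Tle6, these gaps did not enter the limma p-value. The call was lost without eGFP 2 (-4.17, limma adjusted p = 0.906), without mVEGF-C 1 (-3.94, limma adjusted p = 0.0982) and without the variance trend (limma adjusted p = 0.0876). Dact1 overlaps an annotated gene on the opposite strand.

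Its relative Dact3 had 134 and 607 in eGFP and 6.41 and 48.3 in mVEGF-C libraries, the same order of libraries as Dact1, with a log2 fold change of -3.91 (limma, adjusted p = 0.0868; called by DESeq2 at 0.0149 and not by edgeR at 0.134). As for Tle6, Notch3 and Itgam were lower in both mVEGF-C libraries. Rgs5 and Kcnj8 were below 0 and Pdgfrb and Cx3cr1 above 0, all with overlapping groups. The part of mural cells and leukocytes in the differences of Dact1 and Dact3 was not tested. The coactivator gene Crebbp had 9655 and 6259.7 in eGFP and 391 and 5193 in mVEGF-C libraries, with mVEGF-C 1 alone far below the rest (log2 fold change -2.45; limma, adjusted p = 0.0818). Ruvbl2, a chromatin remodelling gene, had 166 and 99.4 against 2.14 and 29.7 (-3.72; limma, adjusted p = 0.122). Skp1a, which encodes a subunit of the ubiquitin ligase that recognises marked beta-catenin, had 821 and 479 against 5557 and 1669.5 (2.28; limma, adjusted p = 0.294). The groups of these 3 genes did not overlap, and none was called.

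Known transcriptional targets of beta-catenin gave no called gene among 18 tested that are not in the pattern. Of these, 8 log2 fold changes were above 0 and 10 below, with a median of -0.09, 1 unadjusted p was under 0.05 in limma, and edgeR and DESeq2 called 0. Over all genes limma called 2.14%, edgeR 1.6% and DESeq2 6.63%, and 11.8% had an unadjusted p under 0.05 in limma. With such shares, 18 genes without a call do not show that the targets were unchanged. The list was not divided into genes that beta-catenin raises and genes that it lowers. Its counts above and below 0 and its median therefore give no direction of pathway activity. Id2, a regulator that blocks helix-loop-helix factors, had 1647 and 1999 normalised read counts in eGFP and 565 and 255 in mVEGF-C libraries, with a log2 fold change of -2.25 (limma, adjusted p = 0.383). Of the widely used targets, Ccnd1 and Myc stood at -1.30 and -1.39 with overlapping groups. A list of 5 genes was made around norrin and WNT7 signals in brain vessels, and 3 of them were tested. The coreceptor genes Adgra2 and Tspan12 stood at 0.16 and -1.30. Lrp4, which is also among the further Wnt regulators and is not specific to these signals, stood at 2.07. Of these 3 genes, 0 were called by limma, edgeR or DESeq2, and 0 had an unadjusted p under 0.05 in limma.

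Of 17 adherens junction partners of beta-catenin tested, 0 were called by limma, edgeR or DESeq2, and 2 had an unadjusted p under 0.05 in limma. The shares over all genes were 2.14%, 1.6% and 6.63% called by these tools and 11.8% with an unadjusted p under 0.05 in limma. Among the 17 log2 fold changes 9 were above 0 and 8 below, with a median of 0.06. The junction protein plakoglobin, encoded by Jup and a close relative of beta-catenin, had 7301 and 1439.9 normalised read counts in eGFP and 14953 and 8221 in mVEGF-C libraries, a log2 fold change of 1.77 (limma, adjusted p = 0.162). The kinase gene Src had 45.7 and 183 against 35.3 and 4.65, a log2 fold change of -2.69 (limma, adjusted p = 0.383). Of 27 further planar polarity and beta-catenin-independent genes tested, 0 were called by limma or edgeR and 1 by DESeq2 (Plcb3, lower). Their count with an unadjusted p under 0.05 in limma was 2, to be read against the same shares over all genes. Of their log2 fold changes 16 were above 0 and 11 below, with a median of 0.39. Ankrd6 (diversin), which binds Dishevelled, had 592 and 452 in eGFP and 2888 and 2015 in mVEGF-C libraries, close replicates with a log2 fold change of 2.22 (limma, adjusted p = 0.350). The phospholipase gene Plcb3 had 466 and 1432 against 80.1 and 163, a log2 fold change of -2.83 (limma, adjusted p = 0.273).

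**Figure D5:**
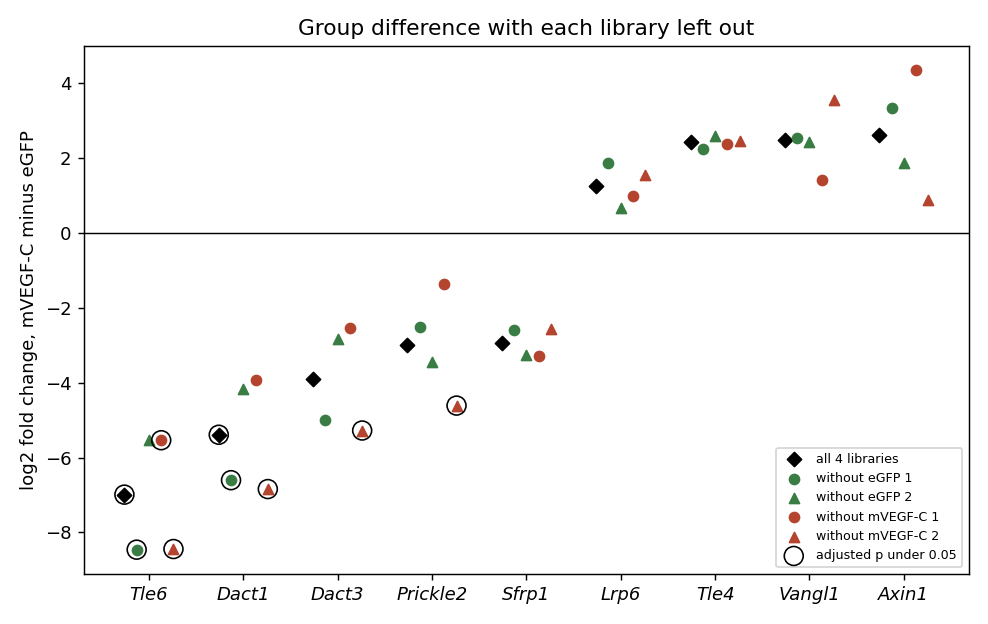
Log2 fold change (mVEGF-C minus eGFP) of the 7 pathway genes with an unadjusted p under 0.05 and of Dact1 and Dact3, with all 4 libraries (black) and with each library left out, where a ring marks an adjusted p under 0.05 in limma. All 9 genes kept their sign, Tle4 stayed between 2.25 and 2.59, Axin1 ran from 0.88 to 4.36, and no gene had a ring without eGFP 2.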

How the data were processed

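The authors deposited 1 table of normalised read counts, a signal made, per the submitters' processing notes, with FastQC, Trimmomatic, Salmon and DESeq2 on mm10. No version, annotation or strand setting is stated there or in the labels. Per the labels' protocols the RNA was amplified linearly. All values in a library were whole multiples of its smallest value above 0 (100% within 0.001), so reads were recovered.

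The fit used R 4.3.3 and limma 3.58.1 (eBayes with trend, 2 residual degrees of freedom, infinite prior degrees of freedom) on log2(normalised read count + 1) for the 9063 genes whose mean reached 10. The pseudocount of 1 understates the log2 fold change of low genes. edgeR 4.0.16 and DESeq2 1.42.0 were run on recovered reads. The limma, edgeR and DESeq2 fits were tested on simulated data with the same relative spread for all genes and changes larger than most seen here. That test does not show how the fits perform at the spread of these data. Exon lengths and coordinates are from GENCODE vM21 (GRCm38, 50 of 50 genes), promoters from RefSeq. Recovered reads over the deposited rows were 25610683 to 28632461 per library. They leave out any gene without a row, so the full depth is not known. Each library is a pool of 10 mice, so p-values measure only the spread between pools. In the main limma fit that spread is the one of genes at a similar level. The gap within a pair of a single gene does not enter its p-value.

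The members and lists were chosen with earlier results of these data known. Named with full values were the called genes, those with an unadjusted p under 0.05, the 6 highest and 6 lowest fold changes and a core list. Counts by group were made for the other genes. Alternatives were other pseudocounts, filters, variance settings, scalings and tools, a replicate block, and leaving out each library.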

Additional observations from a re-analysis of the deposited data

How the results depend on the processing

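With 2 libraries per group, the differences of 49 of the 50 genes did not pass the adjustment in the main limma fit. The smallest detectable difference was not calculated, so an uncalled gene is not shown to be unchanged. Of the 50 genes, 26 kept the sign of their difference under all 15 alternatives, and 24 changed sign with 1 library left out, 2 of them (Csnk2b and Prickle1) also under another scaling. These counts were not made over all genes. Tle6 was called under all 15 alternatives except eBayes without trend (0 called lower) and without eGFP 2 (0). The count of pathway genes called lower with a library left out ran from 0 to 2, Prickle2 being the second without mVEGF-C 2, and that called higher stayed at 0. DESeq2 called 3 pathway genes higher (Axin1, Tle4 and Vangl1) and 2 lower (Sfrp1 and Tle6). Over all genes, 75 were called higher and 119 lower, against 45 and 75 with a mean of at least 100, 15 and 26 without trend, 79 lower in edgeR, 283 and 318 in DESeq2, and with a library left out 5 to 104 higher and 0 to 188 lower (limma; without eGFP 2, 5 higher and 0 lower, with 399 at an unadjusted p under 0.05). With a library left out, signs turned for Apc (-1.20 to 0.12), Dvl1 (-1.98 to 0.79), Fzd6 (-0.23 to 1.16), Gsk3b (-0.34 to 0.038), Tcf7l2 (-1.86 to 0.50), Tnks2 (-0.025 to 0.51) and Znrf3 (-0.27 to 1.10). The cause was not tested. With 1 library left in a group, it is assumed to vary like the other group. Over the 9063 genes tested, the deviations of same-numbered libraries had a correlation of 0. With 1 difference per group this cannot decide whether same-numbered libraries were handled together, which was not tested. The replicate block changed no call of a pathway gene (0 higher, 1 lower) and gave 74 higher and 129 lower over all genes.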
